A study of Mus musculus with 48 samples.

Results

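Sarm1 and 5 genes of NAD metabolism with known roles in axon survival, Nmnat1, Nmnat2, Nmnat3, Nampt and Nmrk1, were followed across sorted nociceptors of mouse dorsal root ganglia. They were chosen by name for these roles, with earlier results of these data known, and are 6 of the 47643 gene identifiers in the count tables. SARM1 is an NAD-cleaving enzyme that drives axon degeneration once it is switched on. NMNAT enzymes turn nicotinamide mononucleotide into NAD, and nicotinamide mononucleotide in turn activates SARM1 while NAD holds it inactive. NMNAT2, a short-lived enzyme carried into axons, is lost from cut axons, and this loss is a known trigger of SARM1.

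Nociceptors were sorted for a ZsGreen reporter from L4 ganglia 3 days after the sciatic nerve had been crushed with forceps. All mice carried Nav1.8-Cre and the Rosa26-ZsGreen reporter. The crush cKO group was the crushed side of Tsc2 flox/null mice, and the crush control group that of Tsc2 flox/+ mice. The uninjured cKO and uninjured control groups were the opposite side in mice of the same genotypes, so control cells could also lose their floxed Tsc2 copy and kept 1 intact copy. All mice were 8 to 9 weeks old, on a mixed C57BL/6 and AJ background, and Cre was driven by the Nav1.8 locus, which is active in most nociceptors. Each group had 4 samples, 2 from male and 2 from female animals, and each sample was 3 aliquots of about 100 cells that were summed here, giving 16 samples from 48 libraries. Levels are given as CPM, counts scaled to library size with edgeR's TMM factors. Levels of different genes are compared only per length, as TPM, for which counts were divided by exon length first.

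Libraries held 5159353 to 34228180 gene counts and summed samples 36773198 to 63365268. Tsc2 itself averaged 8.30 ± 2.42 CPM in crush cKO, 23.2 ± 3.76 in crush control, 8.86 ± 1.51 in uninjured cKO and 21.0 ± 5.14 in uninjured control samples (SD, n = 4 each). Every cKO sample was below every control sample of its side. All 12 nociceptor markers had counts in every group, and their summed level ran from 12787 to 26423 CPM over the 16 samples. Satellite glia markers summed to 626 to 1441 CPM and Schwann cell markers to 1324 to 1895 CPM, so RNA of glial cells was present in every sample. In such sorted pools, fewer cells of a type and less RNA per cell cannot be told apart. Aliquot C stood apart in crush cKO sample 3, with 15493 genes detected, the fewest of all libraries, and in crush cKO sample 4, with 19.4% of its counts outside genes, the largest share.

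Among the 6 genes, Sarm1 had the only difference that passed the test. After crush, Sarm1 was lower in cKO than in control nociceptors, whereas the NMNAT genes, Nampt and Nmrk1 did not pass the test in any comparison. Nmnat2, the NMNAT of the axon, was by far the most abundant of the 6 per length, and Nmnat3 was close to the limit of detection.

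**Figure D1:**
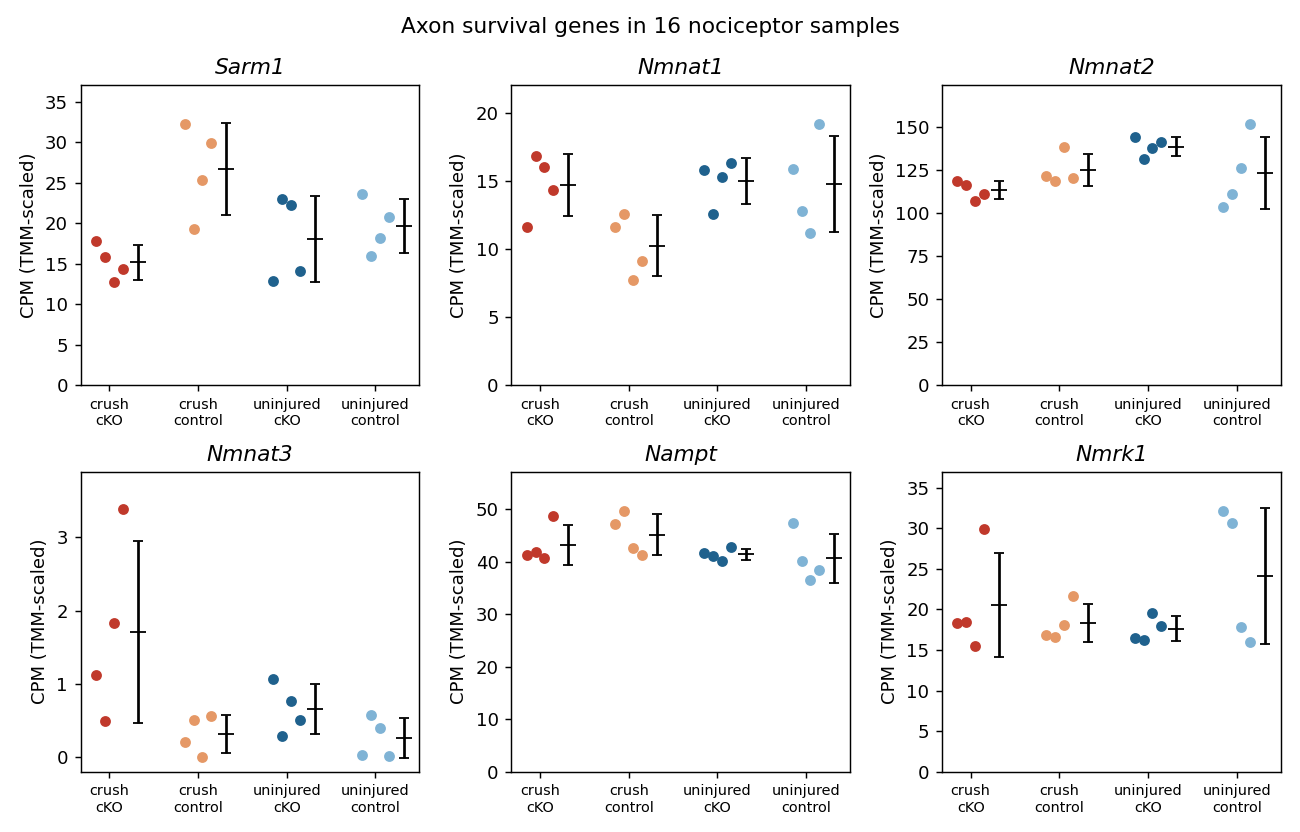
CPM of the 6 genes on linear axes in the 4 groups. Each point is a sample (3 aliquots summed), and bars give the mean ± SD of 4 samples. In Sarm1, the 4 crush cKO samples lie at 12.8 to 17.8 CPM, all below the crush control samples at 19.3 to 32.3 CPM.

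Sarm1 lies on the minus strand of chromosome 11, at 78472330 to 78497754 (GRCm38, GENCODE M21). On the same build, Nmnat1 lies on chromosome 4 (149467572 to 149485202, minus strand), Nmnat2 on chromosome 1 (152954993 to 153119261), Nmnat3 on chromosome 9 (98287435 to 98420438), Nampt on chromosome 12 (32819545 to 32853349) and Nmrk1 on chromosome 19 (18631950 to 18652428), the last 4 on the plus strand. Its promoter is shown because Sarm1 is the gene that differed between groups. The RefSeq sequence of the 250 bases before its start, chr11:78497755-78498004 on GRCm38.p6, minus strand, is given 5′ to 3′ with capitals marking the only match to TGACG, here on the opposite strand.
Sarm1 promoter: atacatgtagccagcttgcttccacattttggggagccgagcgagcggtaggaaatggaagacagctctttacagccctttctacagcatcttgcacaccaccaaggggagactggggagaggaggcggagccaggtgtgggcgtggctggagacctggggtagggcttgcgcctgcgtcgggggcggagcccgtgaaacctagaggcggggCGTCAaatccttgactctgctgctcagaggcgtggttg
TGACG is the core of the site for ATF and CREB proteins, a family that includes the injury-induced factor ATF3. The match has its first base at -38 from the start, and 17.8% of 32851 promoter windows in the same table hold at least 1 TGACG on either strand. The whole palindrome TGACGTCA, which contains this core, had no match, nor did the AP-1 site TGANTCA or the ATF4-C/EBP composite TGATGNAA. These motifs occur in 1.55%, 6.75% and 3.45% of the windows. Such matches describe the letters of the window, not binding.

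After crush, Sarm1 had 17.8, 15.9, 12.8 and 14.3 CPM in the 4 cKO samples, against 32.3, 19.3, 25.3 and 29.9 CPM in the 4 control samples. Every cKO sample was below every control sample, a separation in either direction found for 13.2% of the 19048 genes tested. The means were 15.2 ± 2.16 CPM in crush cKO and 26.7 ± 5.72 CPM in crush control samples (SD, n = 4 each). The log2 difference was -0.81 ± 0.21 (SE; 95% interval -1.27 to -0.36), with a Benjamini-Hochberg adjusted p of 0.0313 from the quasi-likelihood test of edgeR. In that comparison 6.59% of all genes passed, and 1 of the 6 genes did. Sarm1 and Nmnat2 were the 2 of 6 whose groups did not overlap there.

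Without injury, Sarm1 had 12.9, 23.0, 22.3 and 14.1 CPM in cKO samples, against 23.7, 15.97, 18.2 and 20.8 CPM in control samples. These groups overlapped, and the log2 difference was -0.12 ± 0.21 (95% interval -0.57 to 0.33), with an adjusted p of 0.761 by edgeR. Crush itself gave log2 differences of -0.25 ± 0.21 in cKO (adjusted p = 0.647) and 0.44 ± 0.21 in control nociceptors (adjusted p = 0.164, edgeR). Between same-numbered samples, Sarm1 was higher after crush in 2 of 4 cKO pairs and in 4 of 4 control pairs, and with the pairs as a block in edgeR the adjusted p in controls was 0.146. Crush control thus had the highest mean of the 4 groups and crush cKO the lowest, with the means of both uninjured groups between them. The samples of each uninjured group overlapped those of the other and those of both crush groups. The difference between the crush responses of the genotypes was -0.69 ± 0.30 on the log2 scale, with an unadjusted p of 0.0349 and an adjusted p of 0.324 by edgeR, so it did not pass.

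The Sarm1 difference after crush was close to the threshold. It had the same sign in all 27 other settings tried and passed in 17 of them, over a range of -1.03 to -0.61. Among the 17 is the fit of 48 libraries as separate samples (adjusted p = 0.0245 by edgeR). Its p-value does not measure the spread between the samples of a group. The 17 include every setting that left out an uninjured sample. Such samples are not part of this comparison, and the difference stayed at -0.825 to -0.813. Of the settings that left out a crush sample, only those without crush control sample 2 or crush cKO sample 1 passed. Leaving out crush control sample 1, 3 or 4, or crush cKO sample 2, 3 or 4, put the adjusted p at 0.0533 to 0.0921. Without aliquot C of crush cKO samples 3 and 4 it was -0.89, with an adjusted p of 0.0282 by edgeR. Aliquot C of crush cKO sample 4 had 37.1 CPM of Sarm1, against 8.10 and 15.2 CPM in aliquots A and B of that sample.

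Satellite glia markers (all 8 detected) summed to 897 to 1441 CPM in crush cKO and 694 to 1168 CPM in crush control samples. Nociceptor markers summed to 13631 to 16939 CPM in crush cKO and 16712 to 21216 CPM in crush control samples, and the 6 neutrophil and lymphocyte markers to 25.9 to 38.3 CPM in crush cKO and 10.2 to 30.3 CPM in crush control samples, with S100a9 at 0 in both. Vascular cell and fibroblast markers summed to 94.0 to 340 CPM in crush cKO and 43.3 to 96.8 CPM in crush control samples. Each of these ranges overlapped between the genotypes, but the medians differed. In crush cKO and crush control they were 15544 and 18440 CPM for nociceptor and 153 and 91.4 CPM for vascular markers. For neutrophil and lymphocyte markers they were 29.6 and 11.4 CPM, and only crush control sample 1, at 30.3 CPM, reached the cKO range. The part of neuronal, immune or vascular markers in the result was not tested. With the mean log2 level of the glial markers as a covariate, the log2 difference of Sarm1 was -0.77 and its adjusted p 0.123 by edgeR. In male animals it was -0.61 (adjusted p = 0.460) and in female animals -1.03 (adjusted p = 0.129, edgeR), with 2 samples a group in each sex.

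**Figure D2:**
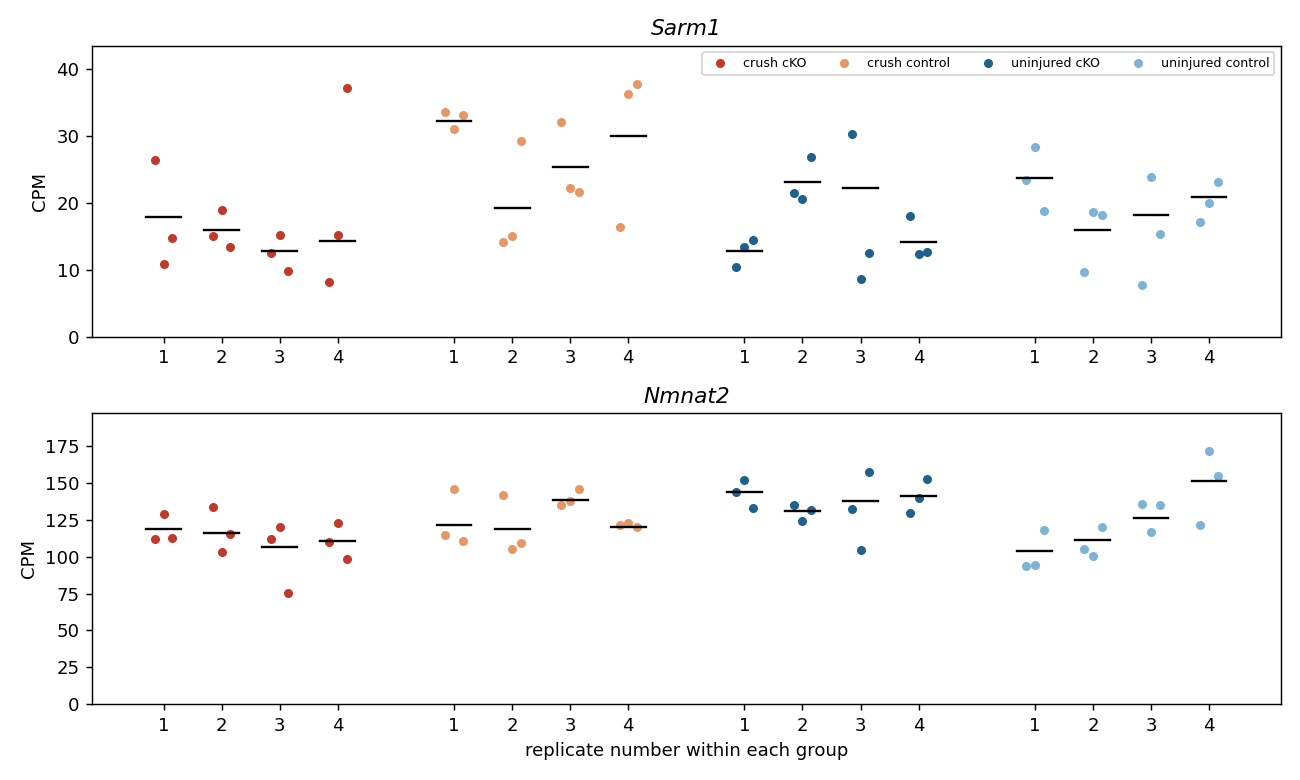
CPM of Sarm1 (top) and Nmnat2 (bottom) in each of the 48 libraries on linear axes. Points are the 3 aliquots of a sample in the order A, B, C, and black lines the level in their sum. Sarm1 aliquots of a sample could spread widely, from 8.10 to 37.1 CPM in crush cKO sample 4, while Nmnat2 aliquots stay between 75.2 and 171 CPM.

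Nmnat2 makes NAD in the axon and on Golgi-derived vesicles. It had 118.5, 116.1, 106.7 and 111.0 CPM in crush cKO samples, against 144.0, 131.2, 137.5 and 141.3 CPM in uninjured cKO samples. No crush cKO sample reached an uninjured one, a separation that in either direction was found for 14.5% of all genes in this comparison. The log2 difference was -0.29 ± 0.10 (95% interval -0.51 to -0.07). Its adjusted p was 0.133 by edgeR. None of the 6 genes passed in cKO nociceptors, where 5.43% of all genes did.

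In control nociceptors, Nmnat2 had 121.5, 118.5, 138.5 and 120.2 CPM after crush, against 103.7, 111.3, 126.0 and 151.6 CPM without injury. These groups overlapped and their log2 difference was 0.02 ± 0.10 (95% interval -0.20 to 0.24; adjusted p = 0.935 by edgeR). Deletion gave -0.14 ± 0.10 after crush (adjusted p = 0.509) and 0.17 ± 0.10 without injury (adjusted p = 0.286, edgeR). After crush the cKO and control samples did not overlap, but the highest cKO and the lowest control sample were both at 118.5 CPM. Without injury, the adjusted p was 0.0437 when control sample 4, the highest, was left out, with a log2 difference of 0.29. The crush responses of the genotypes differed by -0.31 ± 0.15 (adjusted p = 0.379, edgeR), and 1.76% of all genes passed this test of the interaction, against none of the 6.

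Nmnat1, the nuclear NMNAT, had 11.6, 12.6, 7.71 and 9.14 CPM in crush control samples, against 15.9, 12.8, 11.2 and 19.2 CPM in uninjured control samples. The groups overlapped narrowly, and the log2 difference was -0.53 ± 0.20 (95% interval -0.95 to -0.11) with an adjusted p of 0.0750 by edgeR. Nmnat1 was lower after crush in 4 of 4 same-numbered control pairs, and its adjusted p with the pairs as a block was 0.0978 by edgeR. In this comparison 19.7% of all genes passed and none of the 6. The value passed with DESeq2 (adjusted p = 0.0461), with the 48 libraries as separate samples (adjusted p = 0.0194) and without uninjured control sample 3 (adjusted p = 0.0448 by edgeR). The fit of 48 libraries counts aliquots of a sample as separate samples, so its p-value does not measure the spread between the samples of a group. In the authors' deposited table of 8600 genes, which all passed in at least 1 of 3 comparisons, Nmnat1 is the only one of the 6. There its log2 fold change under the crush control heading is -0.59 ± 0.19 with an adjusted p of 0.00884, although the group it is set against is not named.

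In cKO nociceptors, Nmnat1 had 11.7, 16.8, 16.05 and 14.3 CPM after crush, against 15.8, 12.6, 15.3 and 16.3 CPM without injury. These ranges nearly coincided, at a log2 difference of -0.03 ± 0.20 (adjusted p = 0.973, edgeR). After crush, Nmnat1 was 0.52 ± 0.20 higher on the log2 scale in cKO than in control samples (95% interval 0.10 to 0.94; adjusted p = 0.140 by edgeR), the opposite sign to Sarm1. Without injury the genotypes differed by 0.02 ± 0.20 (adjusted p = 0.963), where 20.7% of all genes passed and none of the 6. The interaction was 0.50 ± 0.28 (adjusted p = 0.475, edgeR).

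Nmnat3, the mitochondrial NMNAT, had 1.12, 0.494, 1.83 and 3.39 CPM in crush cKO samples and 0.202, 0.512, 0 and 0.556 CPM in crush control samples. It had 1.07, 0.283, 0.767 and 0.506 CPM in uninjured cKO samples, against 0.0343, 0.572, 0.398 and 0.0201 CPM in uninjured control samples. Levels were thus under 4 CPM in all 16 summed samples, and 18 of 48 libraries held no Nmnat3 read. Deletion after crush gave a log2 difference of 2.42 ± 1.09 (95% interval 0.10 to 4.74; adjusted p = 0.220 by edgeR), or 1.81 with the glial level as a covariate (adjusted p = 0.571). The other crush and deletion comparisons gave 0.30 to 1.37 with adjusted p-values of 0.425 to 0.886. The standard errors of Nmnat3, all over 1, left a change of several-fold undetectable at this depth.

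**Figure D3:**
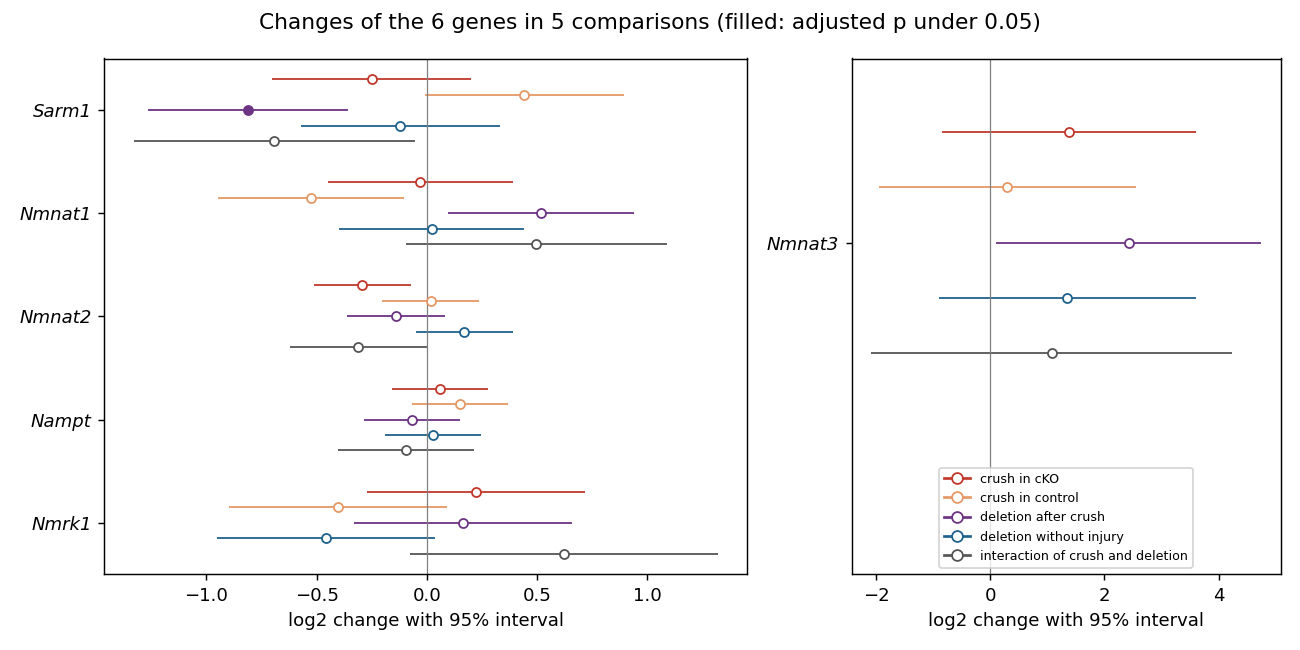
Log2 changes with 95% intervals of the 6 genes in the 2 crush comparisons, the 2 deletion comparisons and their interaction, with Nmnat3 on a wider axis. Filled points have an adjusted p under 0.05 in edgeR's quasi-likelihood test. Only Sarm1 in the comparison of cKO with control after crush is filled, at -0.81.

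Nampt makes nicotinamide mononucleotide from nicotinamide and is the main entry of the salvage route. It had 41.3, 41.8, 40.6 and 48.7 CPM in crush cKO, 47.2, 49.6, 42.5 and 41.2 CPM in crush control, 41.6, 41.0, 40.2 and 42.7 CPM in uninjured cKO and 47.3, 40.1, 36.5 and 38.5 CPM in uninjured control samples. All 4 groups overlapped. Its log2 differences ran from -0.07 to 0.15 in the crush and deletion comparisons, each with an SE of 0.10, and the intervals together spanned -0.28 to 0.37. None passed by edgeR, with adjusted p-values of 0.341 to 0.899.

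Nmrk1, a kinase that makes nicotinamide mononucleotide from nicotinamide riboside, had 18.3, 18.5, 15.4 and 29.9 CPM in crush cKO and 16.9, 16.6, 18.0 and 21.7 CPM in crush control samples. It had 16.5, 16.3, 19.6 and 18.0 CPM in uninjured cKO samples, against 32.1, 30.6, 17.9 and 15.98 CPM in uninjured control samples. The 2 high uninjured control samples were the male ones. Their nociceptor markers summed to 25756 and 26423 CPM, against 14676 and 15457 CPM in the other 2 uninjured controls, and the part of this difference in the Nmrk1 values was not tested. Over all animals, crush in control nociceptors gave -0.40 ± 0.23 (adjusted p = 0.260) and deletion without injury -0.46 ± 0.23 (adjusted p = 0.191, edgeR), both log2. In male animals alone these values were -0.91 (adjusted p = 0.0413) and -0.94 (adjusted p = 0.0270), and in female animals 0.23 and 0.15. The male and female values differed by -1.14 ± 0.35 for crush and -1.09 ± 0.35 for deletion, with adjusted p-values of 0.559 and 0.521 by edgeR over all genes, so a difference between the sexes was not shown. Both comparisons rest on the same 4 uninjured control samples. Crush in cKO nociceptors gave 0.22 ± 0.23 (adjusted p = 0.738) and deletion after crush 0.17 ± 0.23 (adjusted p = 0.774, edgeR), with overlapping groups.

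Per length, Nmnat2 stood first with a mean of 65.4 TPM over the 16 samples, at 47.8 to 82.9 TPM. Nampt followed with 25.4 TPM (20.8 to 29.2), and then Nmrk1 with 16.4, Nmnat1 with 13.6 and Sarm1 with 10.7 TPM. Nmnat2 did not overlap with any other of the 6, and Nmnat3 at 0.428 TPM lay below all, but Nmrk1, Nmnat1 and Sarm1 overlapped as neighbours, as did Nampt and Nmrk1. Nmnat2 was higher than 93.3% and Sarm1 than 78.3% of the 32265 genes with a level, and Nmnat3 than 45.7%.

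Sarm1 held 0.154, 0.140, 0.123 and 0.132 of the Nmnat2 level per length in crush cKO samples, against 0.273, 0.167, 0.188 and 0.256 in crush control samples. The crush groups did not overlap in this ratio, nor did they in Sarm1 alone, so the ratio is not a separate result. In uninjured cKO samples the ratio was 0.0918, 0.180, 0.167 and 0.102, against 0.234, 0.147, 0.148 and 0.141 in uninjured control samples, where the genotypes did overlap. Nmnat2 made up 79.0 ± 3.03% of the summed NMNAT level per length in crush cKO, 86.2 ± 3.30% in crush control, 82.6 ± 1.21% in uninjured cKO and 81.2 ± 3.25% in uninjured control samples (SD, n = 4 each).

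**Figure D4:**
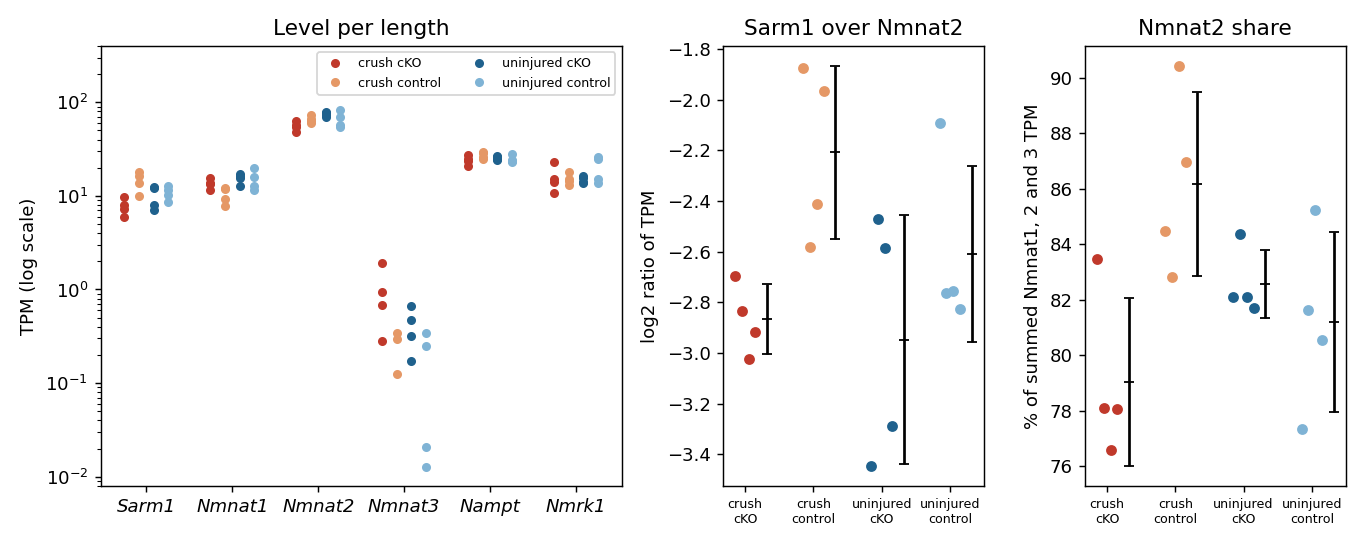
Left, TPM of the 6 genes in 16 samples on a log axis, with the 1 sample at 0 for Nmnat3 left out. Middle and right, the log2 ratio of Sarm1 to Nmnat2 TPM and the share of Nmnat2 in the summed Nmnat1, Nmnat2 and Nmnat3 TPM, on linear axes that do not start at 0, with mean ± SD of 4 samples. The ratio lies at -3.02 to -2.70 in crush cKO samples, all below the crush control samples at -2.58 to -1.87.

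Across the 16 samples, which span the 4 groups and so share group differences, the gene most like Sarm1 in log2 CPM was Dhdds, with a Pearson r of 0.863 among 10235 genes, followed by Guk1 at 0.803 and Kctd10 at 0.789. Nmnat2 was most like Svop (r = 0.892), Mfn1 (0.828) and Apba1 (0.817), and Nmnat1 like Tmem106a (0.836), Mtg1 (0.799) and Nrsn2 (0.744). Nmnat3 was most like Nid1 (0.852), Gstk1 (0.851) and Gpm6b (0.827), Nampt like Amotl1 (0.769), Mdc1 (0.753) and Ncam1 (0.747), and Nmrk1 like Cbx6 (0.791), Mlf1 (0.755) and Asl (0.750). Between the members themselves r ran from -0.60, for Sarm1 and Nmnat3, to 0.31, for Nampt and Nmrk1, over the same 16 samples.

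Of 22 other genes of NAD synthesis and salvage, 16 could be tested. In control nociceptors 2 rose and 3 fell with crush, where 11.0% of all genes rose and 8.68% fell. In cKO nociceptors, where 5.43% of all genes passed, none of the 16 did by edgeR, with 1 at an unadjusted p under 0.05 and 1 called by DESeq2. Nnt, the mitochondrial transhydrogenase, fell in controls to 4.21 to 5.82 CPM after crush, against 6.28 to 11.4 CPM without injury (log2 -0.89, adjusted p = 0.0112 by edgeR). After crush it was higher in cKO samples, at 7.61 to 14.4 CPM, than in those controls (log2 1.02, adjusted p = 0.0126), and it was the only gene of this list to pass there. The crush response of Nnt did not pass the test of the interaction (log2 1.25, adjusted p = 0.0630). Aox1, which can oxidise nicotinamide derivatives, also fell with crush in controls, to 24.9 ± 6.19 CPM against 43.0 ± 12.1 CPM (log2 -0.79, adjusted p = 0.0202).

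Nadk, the kinase that makes NADP from NAD, rose with crush in controls (log2 0.59, adjusted p = 0.0445) and with deletion without injury (log2 0.57, adjusted p = 0.0478, edgeR). It averaged 41.5 ± 7.94 CPM in crush control and 41.1 ± 3.78 CPM in uninjured cKO samples, against 27.7 ± 8.71 CPM in the uninjured controls that both comparisons share. Those controls had 19.0 and 21.7 CPM in the male and 37.1 and 32.9 CPM in the female samples. With males first, crush controls had 51.8, 39.3, 42.2 and 32.7 CPM and uninjured cKO samples 40.8, 44.7, 43.1 and 36.0 CPM. The male uninjured controls also had the higher nociceptor marker levels, and the part of this in the Nadk values was not tested. Nmrk2, the second riboside kinase, had 0, 44, 14 and 13 reads in crush control and 19, 53, 29 and 0 reads in uninjured cKO samples, against 0 in all 4 uninjured controls, and passed in both comparisons (adjusted p = 0.0213 and 0.0178). Tdo2, a tryptophan-degrading enzyme of the de novo route, had 0 reads in all 4 crush controls, against 21, 13, 38 and 45 in uninjured controls (adjusted p = 0.0181). Nt5e, an ectonucleotidase, and Slc25a51, the mitochondrial NAD carrier, passed nowhere, with group means of 61.1 to 105 CPM for Nt5e and 52.9 to 70.2 CPM for Slc25a51.

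The median log2 change of this list was 0.22 with crush in controls, against -0.03 over all genes, and 0.18 with deletion without injury, against 0.02 over all genes. Its 5 calls with crush in controls became 3 without crush control sample 1 and 3 with the samples paired by number. With deletion without injury 2 of the 16 passed, against 20.7% of all genes, and these 2 calls became 1 when any of 10 single samples was left out.

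Of 23 NAD-consuming enzymes, which like SARM1 use up NAD, 22 could be tested. With crush in controls 7 rose and 1 fell, where 11.0% of all genes rose and 8.68% fell, and with deletion without injury 7 rose and none fell, where 11.7% rose and 9.02% fell. Immune markers did not overlap between the groups of these 2 comparisons. The 10 macrophage markers summed to 11.7 to 43.0 CPM in crush control and 9.90 to 21.1 CPM in uninjured cKO samples, against 2.51 to 8.53 CPM in uninjured control samples. The 6 neutrophil and lymphocyte markers summed to 10.2 to 30.3 CPM in crush control and 6.16 to 9.85 CPM in uninjured cKO samples, against 0.307 to 2.78 CPM in uninjured control samples. Their part in the changes of this list was not tested. Sirt3, the mitochondrial sirtuin, was the one that fell with crush, at 63.0 ± 8.51 CPM in crush cKO against 101 ± 11.4 CPM in uninjured cKO samples (log2 -0.68, adjusted p = 0.00274) and 65.2 ± 5.20 CPM in crush control against 115 ± 13.2 CPM in uninjured control samples (log2 -0.82, adjusted p = 0.000139, edgeR). It was the only gene of this list to pass with crush in cKO nociceptors.

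Parp4, a poly(ADP-ribose) polymerase of vault particles, had 32.5 to 43.0 CPM in crush control and 38.1 to 42.2 CPM in uninjured cKO samples, against 12.3 to 21.4 CPM in uninjured controls. It rose by 1.13 with crush in controls (adjusted p = 0.00433) and by 1.20 with deletion without injury (adjusted p = 0.00258), both log2. Parp3, Parp6, Sirt1 and Sirt7 also passed upwards in both comparisons, by 0.55 to 1.21, and Parp1, the main DNA damage polymerase, rose with deletion without injury (log2 0.62, adjusted p = 0.0129) and had 0.25 with crush in controls (adjusted p = 0.311). These 2 comparisons have the uninjured controls in common. With deletion after crush none of the 22 passed by edgeR, and 1 had an unadjusted p under 0.05. Sirt2, a cytosolic sirtuin, averaged 198 to 228 CPM in the 4 groups and Tnks2, a tankyrase, 48.1 to 60.5 CPM, with no call. The median log2 change of the list was 0.17 with crush in controls, against -0.03 over all genes, and 0.30 with deletion without injury, against 0.02 over all genes. The 7 calls with deletion without injury became 4 without uninjured control sample 2 or uninjured cKO sample 1.

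**Figure D5:**
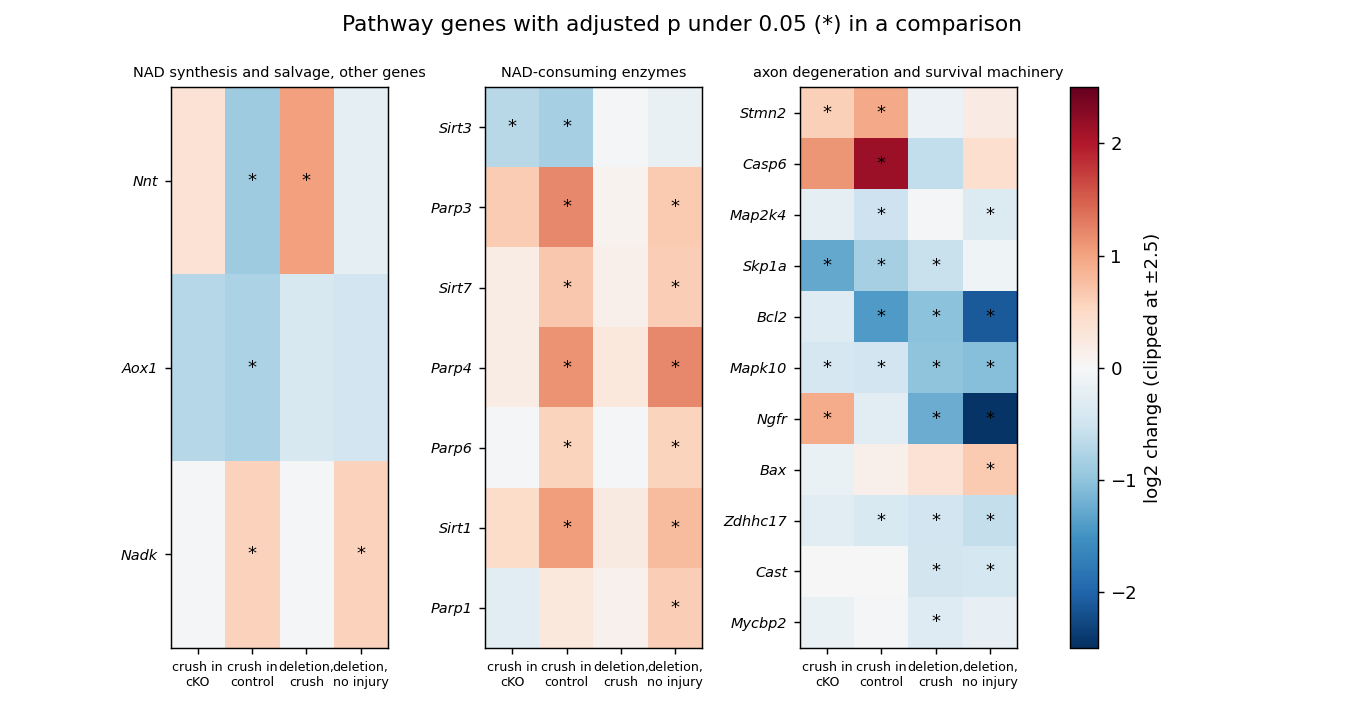
Log2 changes of pathway genes in 4 comparisons (colour, clipped at 2.5 either way), showing up to 6 genes per list and comparison with the smallest p among those with an adjusted p under 0.05 (stars). Genes with a group at 0 reads are left out. Mapk10 is lower in all 4 comparisons, at log2 changes of -0.43 to -1.05.

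All 23 genes of the axon degeneration and survival machinery could be tested. With deletion, 7 fell and none rose after crush, where 3.21% of all genes fell and 3.38% rose, and 8 fell and 3 rose without injury, where 9.02% fell and 11.7% rose. Mapk10, which encodes the neuronal JNK3 kinase that acts in axon injury signalling, had 139, 131, 115 and 92.3 CPM in crush cKO samples, against 217, 258, 260 and 221 CPM in crush control samples. Without injury it had 149, 167, 176 and 149 CPM in cKO samples, against 321, 369, 304 and 336 CPM in control samples. The genotypes were far apart on both sides, with log2 differences of -1.003 (adjusted p = 0.000134) and -1.05 (adjusted p = 1.49e-05, edgeR).

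Ngfr, the p75 neurotrophin receptor, fell with deletion by 1.23 after crush (adjusted p = 0.00753) and by 2.46 without injury (adjusted p = 8.14e-06, edgeR), both on the log2 scale. It averaged 143 ± 30.5 CPM in crush cKO against 336 ± 90.9 CPM in crush control samples, and 74.7 ± 16.7 CPM in uninjured cKO against 410 ± 126 CPM in uninjured control samples. Ngfr is also expressed by glial cells, and satellite glia markers summed to 664 to 855 CPM in uninjured cKO and 626 to 950 CPM in uninjured control samples. Bcl2, an inhibitor of apoptosis, averaged 9.41 ± 1.08 CPM in crush cKO against 19.1 ± 5.30 CPM in crush control samples (log2 -1.02, adjusted p = 0.0413), and 11.8 ± 2.86 CPM in uninjured cKO against 50.8 ± 22.0 CPM in uninjured control samples (log2 -2.11, adjusted p = 9.12e-05, edgeR).

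Zdhhc17, a palmitoyltransferase of NMNAT2, fell by 0.47 after crush and by 0.60 without injury, and Cast, the calpain inhibitor, by 0.47 and 0.45 (log2, adjusted p = 0.0188, 0.00146, 0.0111 and 0.00537). Mycbp2, the ubiquitin ligase that controls NMNAT2 turnover, fell by 0.32 with deletion after crush (adjusted p = 0.0318), at 163 to 194 CPM in crush cKO against 208 to 227 CPM in crush control samples. Bax, which promotes apoptosis, rose with deletion without injury (log2 0.65, adjusted p = 0.000584). The 7 falls after crush became 3 without crush control sample 3, 4 without crush cKO sample 2, 3 or 4, and 2 with the glial level as a covariate. The 11 changes without injury became 7 without uninjured control sample 1 or 4 or uninjured cKO sample 4, and 6 with the glial covariate.

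Crush changed genes of this list too, among them Mapk10 and Bcl2, which also fell with crush in controls. Stmn2, an axonal tubulin-binding protein that like NMNAT2 is short-lived, rose to 5552 ± 743 CPM in crush cKO against 3673.5 ± 143 CPM in uninjured cKO samples (log2 0.60, adjusted p = 0.00252). In controls it rose to 6107 ± 674 CPM after crush against 3187 ± 251 CPM without injury (log2 0.94, adjusted p = 8.08e-06, edgeR). Skp1a, a subunit of the ubiquitin ligase that contains MYCBP2, fell by 1.28 in cKO and 0.83 in control nociceptors (adjusted p = 0.00016 and 0.0011). It was also among the genes that fell with deletion after crush, at 1068 to 1545 CPM in crush cKO against 1455 to 2449 CPM in crush control samples. Casp6, a protease that acts in axon loss, rose with crush in controls by 2.13 on the log2 scale (adjusted p = 0.000551) and had 1.10 (adjusted p = 0.0838, edgeR) in cKO nociceptors, where it did not pass. It had 14.6, 21.9, 4.25 and 22.8 CPM in crush cKO samples, against 7.69, 6.25, 8.73 and 7.06 CPM in uninjured cKO samples. Crush cKO sample 3 lay below all uninjured cKO samples, and the other crush cKO samples lay above them. Map2k4, a kinase upstream of JNK, fell by 0.52 with crush in controls (adjusted p = 0.000879).

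In all, 2 genes of this list rose and 5 fell with crush in controls, where 11.0% of all genes rose and 8.68% fell, and 2 rose and 2 fell in cKO nociceptors, where 2.57% of all genes rose and 2.86% fell. The 4 calls in cKO nociceptors became 2 without uninjured cKO sample 1, 3 or 4, without crush cKO sample 2 or 4, or with the glial covariate. Ngfr and Mapk10 were the calls nearest to the threshold there (adjusted p = 0.0384 and 0.0471, edgeR). Capn2, a calpain subunit, and Mapk9, which encodes JNK2, had no call and averaged 170 to 230 CPM and 83.8 to 95.9 CPM in the 4 groups. The median log2 change of the list was -0.26 with deletion after crush and -0.14 with deletion without injury, against -0.00090 and 0.02 over all genes. No gene of the 3 lists passed the test of the interaction by edgeR. At an unadjusted p under 0.05 there were 5 of NAD synthesis, 6 of the NAD-consuming enzymes and 6 of the axon machinery, and DESeq2 called 1, 0 and 1 of them.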

How the data were processed

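RNA of 48 libraries (16 samples of 3 aliquots) was read as single reads of 50 bases, per the labels' protocols, with a kit that keeps no strand and no molecular identifiers. The authors deposited whole-number counts per gene. Per the submitters' processing notes, STAR and HTSeq were used on the mm10 build together with FastQC and DESeq2; their versions are not stated in the labels or headers. Summary lines (alignments to several places made up 37.5 to 46.1% of a library's counts) stayed out of library sizes and tests. The authors' deposited table gives log2 fold changes with p-values, per the file headers, and is used for Nmnat1 only.

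Aliquots were summed, the 19048 genes passing edgeR's filterByExpr were tested with edgeR 4.0.16 (R 4.3.3; TMM, quasi-likelihood, 1 mean per group over all 16 samples), and p-values were adjusted by Benjamini-Hochberg over all of them, with a threshold of 0.05. DESeq2 1.42.0 and limma 3.58.1 gave alternatives. TPM used union exon lengths of GENCODE M21. None of the genes overlapping a member shares exon bases with it. On simulated counts, changes of 2-fold were recovered for 49% of the genes changed by that size in the comparison of deletion after crush. Likeness used log2 CPM with a prior count of 2 and genes averaging at least 5 CPM.

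Nothing in the labels says that a replicate number marks the same animal on both sides. Same-numbered crush and uninjured samples deviated together, with correlations of 0.146 to 0.387 in controls and 0.282 to 0.436 in cKO. Samples of other numbers correlated at -0.320 to 0.227 in controls and -0.312 to 0.182 in cKO. Same-numbered samples also share their sex. Those of different genotypes, which are different animals, correlated at 0.0713 to 0.285 after crush and 0.0886 to 0.180 without injury. Whether a number marks 1 animal was thus not settled, and fits with the numbers as a block are alternatives only. Members and gene lists were chosen with earlier results of these data known. Named pathway genes were up to 6 per list and comparison with the smallest p among those called, and the 2 of each list with the highest mean CPM that were called nowhere. Motifs were searched on both strands. One gene of the axon machinery list is not reported here and was left out of its counts.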

Additional observations from a re-analysis of the deposited data

Results flagged for a closer look

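Of 24 groups of 4 samples, 6 genes in 4 groups, 2 held a sample far from the other 3, and chance flags about 1 in 20 groups. Nmnat2 was at 138.508 CPM in crush control sample 3, against 118.5 to 121.5 CPM in the other 3. Nampt was at 48.6826 CPM in crush cKO sample 4, against 40.6 to 41.8 CPM in the other 3.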

How the results depend on the processing

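The call of Sarm1 with deletion after crush gave 1 member called. It gave 0 with the replicate block, the glial covariate, an adjusted p under 0.01, and in male or female animals alone. Without single replicates it gave 0 to 1. The block, a paired fit in edgeR, gave log2 -0.81 with an adjusted p of 0.0546. It joins same-numbered samples of different genotypes, and so of different animals, which correlated at 0.0713 to 0.285. Over the settings of the Sarm1 call the adjusted p ran from 0.00472 to 0.460. Members called with crush in controls went to 1 with DESeq2, with 48 libraries as separate samples and in male animals, and 0 to 1 without single replicates. Those with crush in cKO went to 1 with 48 libraries, through Nmnat2 (adjusted p = 0.0274), and those with deletion without injury to 1 in male animals and 0 to 1 without single replicates. The replicate block changed no other call of the 6 genes. Sex and the 2 left-out aliquots were chosen after seeing the data. The fit of 48 libraries counts aliquots of a sample as separate samples, so its p-values do not measure the spread between the samples of a group.

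None of the changes that turned in sign was called. In female animals these were Nmnat2 (-0.10) and Nmrk1 (0.23) with crush in controls, Nmrk1 with deletion without injury (0.15) and Nampt with deletion after crush (0.0940). In male animals they were Nmnat1 with crush in cKO (0.0028) and deletion without injury (-0.0152), and Nampt with deletion without injury (-0.0811). With the glial covariate Nmnat3 was -0.24 with crush in controls and Nmnat1 -0.00083 with deletion without injury, and with 48 libraries the last was -0.0559. Leave-one-out ranges that crossed 0 were -0.0469 to 0.133 for Nmnat2 and -0.0965 to 1.06 for Nmnat3 with crush in controls, -0.105 to 0.0664 for Nmnat1 and -0.00137 to 0.349 for Nmrk1 with crush in cKO, and -0.0854 to 0.293 for Nmrk1 with deletion after crush. With deletion without injury they were -0.258 to 0.0132 for Sarm1, -0.0937 to 0.174 for Nmnat1 and -0.0247 to 0.110 for Nampt. The median CV between the samples of a group was 6.93% for Nmnat2, 21.1% for Sarm1 and 73.3% for Nmnat3, and that between the aliquots of a sample 10.2%, 22.8% and 121%.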
